A study of Mus musculus with 48 samples.

Results

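The genes described here encode the proteins of the cytosolic ribosome. They were taken as the protein-coding rows of the deposited count table whose symbol starts with Rpl or Rps, leaving out the Rps6k kinases, which share the letters but not the function. This gave 101 of 49671 rows. By role they comprised 31 small-subunit genes, 43 large-subunit genes and the 3 stalk genes Rplp0, Rplp1 and Rplp2, which together are called the core members here. The remaining rows were 8 paralogs (near copies of a core member, such as Rps27l), 15 pseudogene-named rows and Rps19bp1. The pseudogene-named rows are those with a pseudogene suffix in their name and Rpl6l. The product of Rps19bp1 binds Rps19 and is not part of the ribosome. A filter on low counts kept 85 of the 101 rows: all 31 small-subunit, 42 large-subunit and 3 stalk genes, 5 paralogs, 3 pseudogene-named rows and Rps19bp1. Counts of changed genes below refer to these 85 rows, of which 76 are core members. Ribosomal proteins whose genes carry other symbols, such as Fau, fall outside the rule.

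The small subunit reads the messenger RNA and the large subunit joins the amino acids, while the stalk on the large subunit recruits the elongation factors. The mRNAs of these genes are abundant in growing cells and typically begin with a C followed by a run of pyrimidines, the terminal oligopyrimidine (TOP) motif, through which mTOR and the RNA-binding protein Larp1 adjust their translation and stability. Some ribosomal proteins act elsewhere too: free Rpl5 and Rpl11 bind Mdm2, the regulator of p53, and Rpl13a belongs to a complex that represses the translation of inflammatory mRNAs after IFNγ.

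The cells were NMM, a melanoma line from mice that carries mutant NRAS, grown in bulk culture in IMDM with 10% fetal calf serum. Poly(A) RNA was sequenced after continuous exposure for 2, 6, 12 or 24 h, with 1 library per condition and duration and 48 libraries in all. The 12 groups were unstimulated cells, IFNγ at 0.01, 1 and 100 ng/ml, TNF at 0.1, 1 and 10 ng/ml, IFNγ at 100 ng/ml together with TNF at 10 ng/ml (the combination), and, singly, 5000 U/ml of IFNα1, 6000 U/ml of IL-2, 10 ng/ml of TGF-β or 2 ng/ml of lymphotoxin α1β2. Durations stood in for replicates in the comparisons of stimuli, and stimuli in the comparisons of durations. Separate cultures are not stated in the labels, and p-values therefore measure only the spread between these libraries.

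Libraries held 5612907 to 9663207 counts (median 7460151.5). Of the melanocyte markers Mitf, Sox10, Pmel, Mlana, Tyr, Tyrp1 and Dct, only Mitf was present at an appreciable level (median 6.79 CPM, the counts scaled to a common library size), Sox10, Tyr and Tyrp1 had 2 counts each over all 48 libraries, Pmel was low (152 counts in all, median 0.409 CPM), and Mlana and Dct had 0 counts. Markers of T and NK cells were at or near 0 (6 of 8 with 0 counts in all libraries; summed level at most 0.394 CPM). Macrophage markers summed to 26.4 to 84.3 CPM, nearly all from Cd14 and Cd68, with Adgre1 at 0, and fibroblast markers to 15.8 to 69.4 CPM, mainly from Dcn and Pdgfra. The libraries of 2 h and 12 h used the same 12 index sequences, and those of 6 h and 24 h another 12. All other pairs of durations shared 0. Which durations were sequenced together cannot be told from the index sequences.

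The start regions of the members the results turn on are shown first, from 30 bases before to 20 bases from the annotated start in RefSeq (mouse build GRCm38.p6), 5′ to 3′ on the coding strand. Capitals mark CCGGAA on either strand (TTCCGG when read on the coding strand), the core of ETS-family sites, or a run of at least 6 pyrimidines. Rpl11 lies at chr4:136053374-136053423 on the minus strand, Rpl13a at chr7:45128726-45128775 on the minus strand, Rpl37a at chr1:72711230-72711279 on the plus strand, Rps16 at chr7:28350659-28350708 on the plus strand and Rpl41 at chr10:128549149-128549198 on the minus strand. The paralogs follow with 1 partner: Rps27 at chr3:90213629-90213678, Rps27rt at chr9:114982720-114982769 and Rpl7l1 at chr17:46782637-46782686, all on the minus strand, and Rps27l at chr9:66946056-66946105 on the plus strand.
Rpl11: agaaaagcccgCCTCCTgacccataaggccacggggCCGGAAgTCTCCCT
Rpl13a: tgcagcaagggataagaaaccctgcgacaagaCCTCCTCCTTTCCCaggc
Rpl37a: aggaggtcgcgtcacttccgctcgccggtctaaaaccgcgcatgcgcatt
Rps16: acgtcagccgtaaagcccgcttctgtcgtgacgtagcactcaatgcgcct
Rpl41: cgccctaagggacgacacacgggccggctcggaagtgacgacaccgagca
Rps27: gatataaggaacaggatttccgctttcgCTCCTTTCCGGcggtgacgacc
Rps27rt: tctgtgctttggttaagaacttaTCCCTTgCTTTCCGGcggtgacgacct
Rps27l: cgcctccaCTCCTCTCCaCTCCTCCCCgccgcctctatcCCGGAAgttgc
Rpl7l1: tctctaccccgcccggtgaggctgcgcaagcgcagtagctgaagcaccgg

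Rpl13a held the longest pyrimidine run of these windows, 14 bases, just after its annotated start. Rps27 and Rps27rt shared a run of 19 of the 50 bases, with capitals at or across the annotated start in both. Across the table, 66 of the 101 members and 57 of the 77 core members had an entry. In windows of 50 bases, CCGGAA on either strand occurred in 15 of 57 core members (26.3%) and in 6.04% of 27025 genes, and a pyrimidine run of at least 6 in 42 of 57 (73.7%) and 48.7%. In longer windows, 250 bases before to 50 after the start, CCGGAA was found in 32 of 57 core members (56.1%) and 16.7% of all genes, CTTTCC on the coding strand in 40.4% and 16%, CTCTTT in 40.4% and 13.7%, and TATAAA in 8.77% and 9.77%. CTTTCC and CTCTTT can overlap each other. Counting annotated transcripts that begin with C and at least 4 further pyrimidines, 22 of 77 core members (28.6%) had one, as did 9 of 23 translation factors listed as TOP mRNAs, 2 of 36 ribosome assembly genes, 5 of 78 mitochondrial ribosomal protein genes and 5.12% of 21901 coding genes. These shares describe letters in the annotated windows and carry no test.

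The members took 3.14% of all counts, between 2.73% and 3.51% of a library (median 3.11%), with a 95% Wilson interval no wider than 0.0142 percentage points on each side of the share, which covers counting error only. Another 267 rows with Rpl or Rps names and pseudogene biotypes held 0.0184% of counts. The share was 3.32% ± 0.190 (SD, n = 4 durations) in unstimulated cells, 3.23% ± 0.211 with IL-2, 3.07% ± 0.147 with TNF at 10 ng/ml, 2.95% ± 0.224 with IFNγ at 100 ng/ml and 2.92% ± 0.205 with the combination. The groups overlapped: the unstimulated libraries ran from 3.06% to 3.51% and the combination from 2.77% to 3.21%. In bulk RNA, fewer cells with a transcript and less of it per cell cannot be told apart.

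Levels per kilobase of exon differed widely between members. Rplp1 was highest with a median of 1382 CPM per kb over the 48 libraries, followed by Rpl4 at 888, Rps15, which lies at the decoding site, at 767 and Rpl8 at 617 CPM per kb. The lowest tested core members were Rpl21 at 27.2, Rpl13a at 32.6, Rpl35a at 36.9, Rpl29 at 45.3 and Rps19 at 65.9 CPM per kb, and the core median was 192. These ranks also depend on the annotated exon length: over 76 members it had a Spearman correlation of -0.57 with the level per kb. Before division by length Rps19 had a median of 309 CPM. Rpl24 was the 1 core member that failed the filter, with 226 counts in all libraries. Of the 50-base stretches of its transcripts 81.7% occur elsewhere in the transcriptome, and another gene, Gm28037, overlaps it on its own strand. Whether either lowers its count was not tested, so its level here need not be that of its mRNA. Over the 76 tested core members a median of 35.5% of such stretches occurred elsewhere, so that the level of a member also depends on how reads with several matches were counted, which the sources used here do not give. Of the 85 tested members, 32 overlap a small RNA gene on their own strand and 24 a gene on the other strand.

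**Figure D1:**
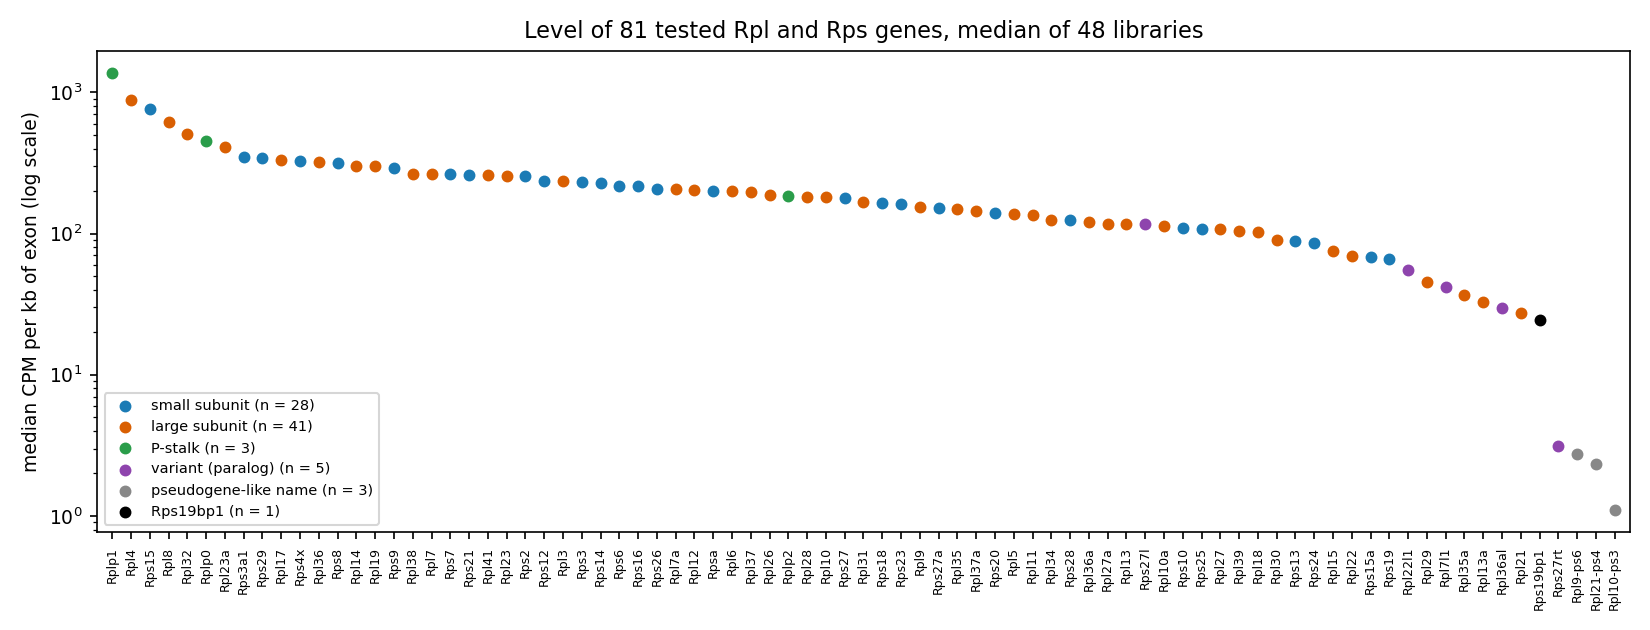
Median CPM per kb of exon (log scale) over 48 libraries for 81 of the 85 tested members, ordered from high to low and coloured by role. Rplp1 stands first at 1382 CPM per kb, most core members lie within the range from 27.2 upwards, and Rps27rt and the 3 pseudogene-named rows lie near the bottom.

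Core members varied little. The standard deviation of log2 CPM over the 48 libraries had a median of 0.11 in core members, from 0.07 for Rpl26 to 0.35 for Rpl36. Among 4481 other genes in the same range of CPM the median was 0.18, and 87.2% of them varied more than the median core member. Most core members followed a common profile: the correlation of a member with the median profile of the set had a median of 0.68 and was highest for Rps7 at 0.88. Among the tested members least like that profile were Rpl7l1 (r = -0.18), Rps19bp1 (-0.14), Rpl21-ps4 (0.03) and Rps27rt (0.08). These correlations are descriptions over 48 libraries that share depth, stimulus and duration.

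Within the core, subgroups moved together. The first component of the log2 values held 34.9% of their variance, the second 21.7% and the third 8.64%. Of 2850 pairs of core members, the median correlation was 0.51 and 196 were below 0. The closest pairs were Rpl36 with Rplp2 (r = 0.94), Rplp1 with Rps10 (0.93) and Rpl11 with Rpl37a (0.93), while Rpl21 with Rpl36 (-0.50) and Rpl36 with Rps3a1 (-0.50) were the most opposed. A block of Rpl36, Rplp1, Rplp2, Rps10 and Rpl27a, picked after its values were seen, had pairwise correlations of 0.74 to 0.94. Relative to its own mean the block was lowest at 6 h of IFNγ 100 ng/ml (-0.63 on the log2 scale) and highest at 24 h of TNF 0.1 ng/ml (0.33). Among 7389 non-member genes with a mean of at least 20 CPM, those most like the median member profile after removing duration means were Eef1b2, an elongation factor subunit (r = 0.82), Shfm1 (0.81), Atp5j2, a subunit of ATP synthase (0.75), Ndufa8 (0.74), Bri3 (0.74), Ptma (0.74), Tma7 (0.73), Cox7c (0.73), Cdc37 (0.71) and Sod1 (0.71). The most opposed were Zfx (-0.76), Atrn (-0.72), Asxl2 (-0.67), Ap4e1 (-0.67) and Rc3h2 (-0.67).

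The first comparison set the highest IFNγ dose, 100 ng/ml, beside no stimulus over the 4 durations. A few members were lower, most did not pass the test: of 85 members 7 fell and 1 rose (9.41%), where 22.1% of all 12203 tested genes changed, 12.8% higher and 9.3% lower. The members' median log2 change was -0.09, that of all genes -0.02, and 75 of the 85 members lay below 0. The fallers were spread over both subunits, namely Rps15, Rps16 and Rps28 of the small subunit, Rpl23a, Rpl37a and Rpl41 of the large subunit, and the paralog Rpl36al. The riser was Rpl7l1, a nucleolar paralog of Rpl7 that takes part in ribosome assembly.

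Rpl37a, a small zinc-binding protein of the large subunit, had 225.3, 223.3, 180.5 and 220.6 normalised CPM in unstimulated cells at 2, 6, 12 and 24 h, and 220.1, 167.4, 144.7 and 147.2 with IFNγ 100 ng/ml. The treated libraries lay below their partners at all 4 durations, and from 6 h on they lay below every unstimulated library. Its log2 change was -0.33 ± 0.11 (edgeR, adjusted p = 0.0208). Here and below ± after a log2 change is an approximate standard error, the change divided by the square root of its F statistic. Rps15 had 525.7, 528.5, 477.7 and 537.8 normalised CPM without and 479.3, 415.9, 376.8 and 467.2 with IFNγ, a change of -0.25 ± 0.07 (adjusted p = 0.00493), with lower values at all 4 durations. Rps16, a small-subunit protein whose tail reaches the tRNA site, had 307.2, 300.8, 277.4 and 308.0 normalised CPM without and 274.0, 204.9, 218.4 and 285.9 with IFNγ, a change of -0.28 ± 0.09 (adjusted p = 0.0166). The lowest values of Rps16 were those of the 6 h and 12 h treated libraries.

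Rpl41, which encodes the shortest ribosomal protein, fell by 0.28 ± 0.10 on the log2 scale (adjusted p = 0.0323), Rps28 by 0.29 ± 0.11 (adjusted p = 0.0496), Rpl36al by 0.23 ± 0.08 (adjusted p = 0.0247) and Rpl23a by 0.15 ± 0.05 (adjusted p = 0.0358). Rpl7l1 had 145.9, 149.2, 124.0 and 124.5 normalised CPM without and 147.8, 160.3, 151.2 and 139.9 with IFNγ, a change of 0.14 ± 0.05 (adjusted p = 0.0409). The stalk genes showed sizeable but uneven values that did not pass the test. Rplp1 had 754.2, 740.4, 679.5 and 638.5 normalised CPM without and 508.9, 437.7, 496.3 and 773.5 with IFNγ (log2 change -0.36 ± 0.15, adjusted p = 0.0851): 3 of the 4 treated libraries lay below all unstimulated ones and the 24 h library above them.

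The count for IFNγ 100 ng/ml rested on few libraries. The 6 h treated library had the lowest member level of the group: its median log2 ratio to the unstimulated 6 h library was -0.25, with 78 of 85 members below 0, against 0.02 at 2 h, -0.01 at 12 h and -0.13 at 24 h. Without that library 2 members passed, Rps15 (-0.21, adjusted p = 0.0318) and Rpl7l1 (0.17, adjusted p = 0.0296). Rpl37a (-0.29, adjusted p = 0.072), Rps16 (-0.19, adjusted p = 0.125), Rpl41 (-0.18, adjusted p = 0.203) and Rps28 (-0.19, adjusted p = 0.244) then missed the threshold. Leaving out all 12 groups' libraries of 1 duration gave 21 calls without 2 h, 0 without 6 h, 0 without 12 h and 5 without 24 h. With scaling by library totals in place of TMM factors, 40 members were lower and 0 higher, the median of all genes went from -0.02 to -0.11, and Rpl7l1 no longer passed (0.06, adjusted p = 0.388). Here and below, counts of members under library totals or with libraries left out stand without the share of all genes called.

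**Figure D2:**
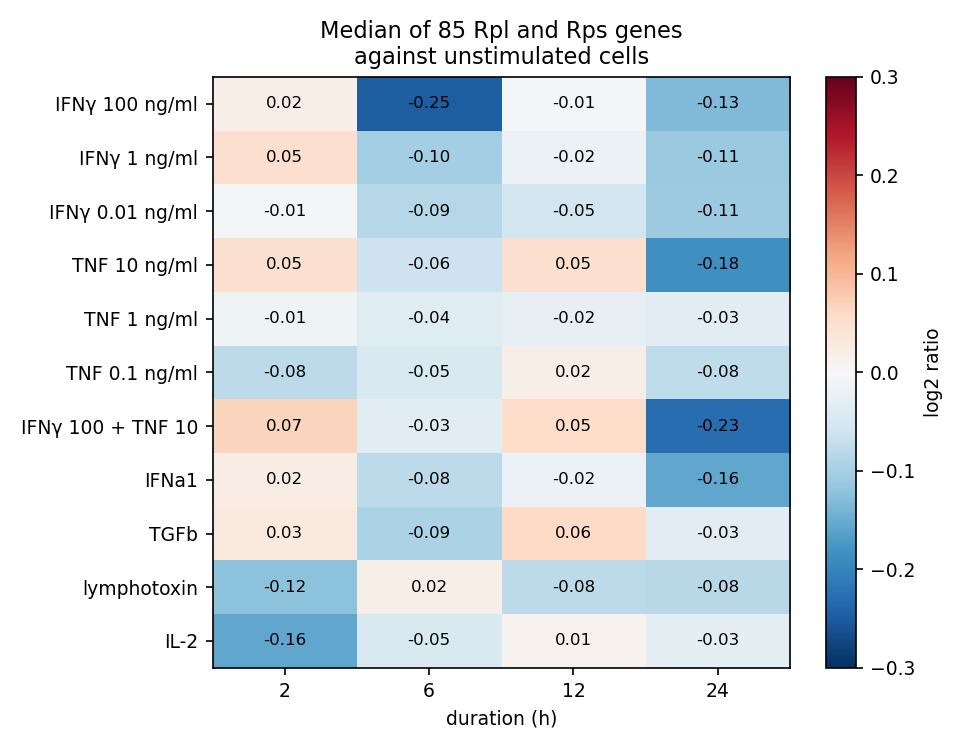
Median log2 ratio of the 85 tested members to unstimulated cells for each stimulus (rows) and duration in hours (columns), 1 library in each group at each cell. The lowest cells are IFNγ 100 ng/ml at 6 h (-0.25) and the combination at 24 h (-0.23), and IL-2 at 2 h reaches -0.16.

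Lower doses of IFNγ gave fewer calls. At 1 ng/ml 2 of 85 members fell (15% of all genes changed, 9.51% higher and 5.47% lower; member median -0.05, all genes -0.02): Rpl41 by 0.32 ± 0.10 on the log2 scale (adjusted p = 0.0183) and the sparse pseudogene-named row Rpl9-ps6 by 0.92 ± 0.29 (adjusted p = 0.0269). At 0.01 ng/ml edgeR called 0 members and 0% of all genes, DESeq2 also called 0 members, and 4 members had an unadjusted p under 0.05. Between 100 and 1 ng/ml 0 members and 0% of genes were called by edgeR, 0 members by DESeq2, and 4 members had an unadjusted p under 0.05.

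TNF at 10 ng/ml left the set almost without calls: 1 of 85 members rose and 0 fell, where 17.1% of all genes changed (9.83% higher and 7.3% lower), and the member median was -0.03 beside -0.02 for all genes. That member was again Rpl7l1, with 149.0, 184.0, 150.3 and 130.7 normalised CPM at 2, 6, 12 and 24 h and a log2 change of 0.17 ± 0.05 (adjusted p = 0.0177). Its values exceeded the unstimulated ones at all 4 durations, most at 6 h, and under library totals it no longer passed (0.10, adjusted p = 0.168) while 4 members were lower. At 1 ng/ml 0 members passed where 2.72% of genes did (2.01% higher and 0.713% lower), and at 0.1 ng/ml 0 where 0.0164% did (0.00819% in each direction); DESeq2 called 0 at both doses, and 1 member at each dose had an unadjusted p under 0.05. Between 10 and 1 ng/ml edgeR and DESeq2 called 0 members, 0 had an unadjusted p under 0.05, and 0.238% of all genes were called, all of them higher.

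The combination changed the most genes overall and few members. Of 85 members 2 rose and 4 fell, where 42% of all genes changed (20.9% higher and 21.2% lower), and the median was -0.03 for the members and for all genes. Rps20, a small-subunit protein, was among those that rose. Rpl37a, Rpl13a and Rpl11 of the large subunit and the paralog Rps27l fell.

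Rps20 had 584.6, 543.7, 545.6 and 574.3 normalised CPM without stimulus at 2, 6, 12 and 24 h and 610.0, 599.2, 669.8 and 702.4 with the combination. The groups did not overlap, and the change was 0.20 ± 0.07 (edgeR, adjusted p = 0.0289). Rpl37a went from 228.5 at 2 h to 196.0, 142.1 and 118.0 normalised CPM with the combination, beside 220.6 in unstimulated cells at 24 h. Its change over the durations was -0.34 ± 0.11 (adjusted p = 0.0103). Rpl11, which also restrains Mdm2, had 392.6, 396.4, 363.8 and 402.7 normalised CPM without and 415.7, 367.4, 327.2 and 282.4 with the combination (-0.17 ± 0.06, adjusted p = 0.0293): it started above the unstimulated range and ended below it. Rpl13a had 72.7, 65.1, 69.5 and 84.1 without and 65.8, 57.3, 72.3 and 60.4 with the combination (-0.19 ± 0.06, adjusted p = 0.0169), with overlapping groups. Rps27l, a p53-responsive copy of Rps27, fell by 0.17 ± 0.07 on the log2 scale (adjusted p = 0.049).

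Under library totals the median of all genes moved by -0.17 and 55 members were lower and 1 higher. Rps20 was then at 0.03 (adjusted p = 0.772). With DESeq2 size factors, and with TMM factors computed without the members, 3 members rose and 3 fell. Without the 24 h combination library 2 members passed, Rps20 (0.20, adjusted p = 0.0493) among them, and all 4 falls lost their call and shrank. Rpl37a was then at -0.20 (adjusted p = 0.136), Rpl13a at -0.10 (adjusted p = 0.225), Rpl11 at -0.08 (adjusted p = 0.343) and Rps27l at -0.09 (adjusted p = 0.358). Leaving out a duration in all groups gave 15 calls without 2 h, 3 without 6 h, 2 without 12 h and 1 without 24 h.

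**Figure D3:**
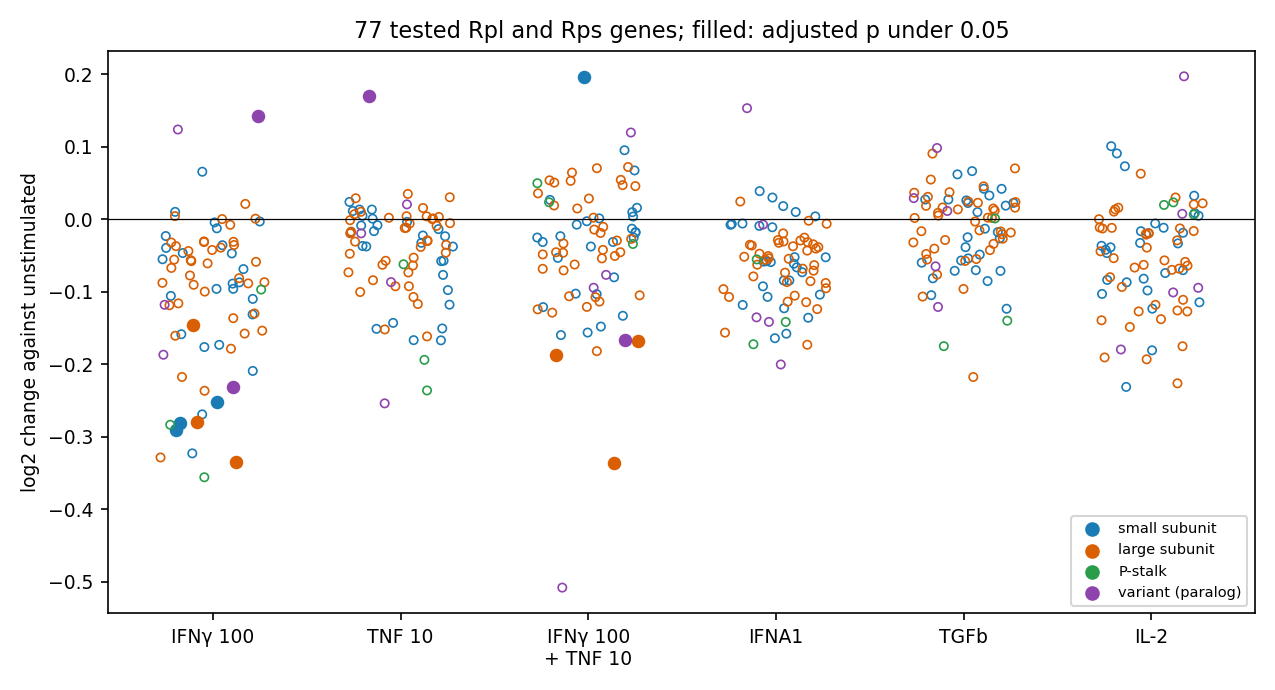
Log2 change against unstimulated cells for 77 tested members of both subunits, the stalk and the paralogs, under 6 stimuli (doses in ng/ml). Each point is 1 gene, coloured by role, and filled points passed an adjusted p of 0.05. Filled points appear under IFNγ 100, TNF 10 and the combination, where Rps20 lies at 0.20 and Rpl37a at -0.34.

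Direct comparisons placed the combination against its parts. Against IFNγ 100 ng/ml 2 members rose and 0 fell, where 13.9% of genes changed (8.49% higher and 5.42% lower). Rps16 rose by 0.26 ± 0.09 (edgeR, adjusted p = 0.0412), a call kept in 5 of 13 alternatives. It had 298.2, 320.5, 263.4 and 290.7 normalised CPM with the combination, near the 307.2, 300.8, 277.4 and 308.0 of unstimulated cells. With IFNγ it had 274.0, 204.9, 218.4 and 285.9. The member median was 0.05 over the durations, and 0.05, 0.22, 0.07 and -0.09 at 2, 6, 12 and 24 h. Under library totals 1 rose and 1 fell. Against TNF 10 ng/ml 2 rose and 0 fell, where 14% of genes changed (9.12% higher and 4.84% lower). Rps20 rose by 0.21 ± 0.07 (adjusted p = 0.0458), a call kept in 4 of 13 alternatives. Under library totals 1 rose and 10 fell there. The test of non-additivity asks whether the combination departs from the sum of both single changes on the log2 scale. For this, edgeR and DESeq2 called 0 members and edgeR 0.0819% of genes (0.0656% above and 0.0164% below 0), 14 members had an unadjusted p under 0.05, and 72 of the 85 values were above 0 (median 0.09, all genes 0.00). By duration the non-additivity median of the members was -0.02 at 2 h, 0.28 at 6 h, 0.02 at 12 h and 0.10 at 24 h. The 6 h value includes the low IFNγ 100 ng/ml library, whose median against unstimulated cells was -0.25. Each of these medians rests on single libraries and carries no test. The comparisons in this paragraph share libraries with one another.

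The remaining stimuli gave 0 called members with edgeR and with DESeq2. IFNα1 changed 9.27% of all genes, 6.18% higher and 3.09% lower (2 members at an unadjusted p under 0.05, median -0.06) and TGF-β 8.28%, 5.02% higher and 3.25% lower (0 members, median -0.02). Lymphotoxin and IL-2 changed 0% of genes (3 and 4 members at an unadjusted p under 0.05, medians -0.06 and -0.04). All 11 member medians against unstimulated cells lay below 0, from -0.09 to -0.02, those of the stimuli that changed no gene included. Since all 11 use the same 4 unstimulated libraries, which hold the highest mean member share, these signs are not independent of one another.

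Time courses were compared by the slope of the log2 level on log2 hours, that is the change per doubling of the exposure relative to unstimulated cells. With the combination 11 members had a lower slope and 1 a higher one, where 17.4% of all genes differed (8.04% higher and 9.37% lower). The member median was -0.07 per doubling and that of all genes 0.00, and 73 of 85 members lay below 0. The lowest was Rpl37a (-0.24 ± 0.05 per doubling, edgeR, adjusted p = 0.000471), followed by Rps25, a small-subunit protein used by viral ribosome entry sites (-0.19 ± 0.04, adjusted p = 0.00101), Rpl36a (-0.17 ± 0.05, adjusted p = 0.0186) and Rpl11 (-0.15 ± 0.04, adjusted p = 0.00376). Others with lower slopes were Rpl23, Rps3a1, Rpl7, Rpl3 and Rpl23a, between -0.12 and -0.10. Rps25 had 375.8, 290.5, 251.8 and 228.7 normalised CPM with the combination at 2, 6, 12 and 24 h and 313.7, 333.1, 271.0 and 325.8 without stimulus: highest of the pair at 2 h and lowest at 24 h.

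With IFNγ 100 ng/ml the slope of Rps25 was the only one called (-0.16 ± 0.04, adjusted p = 0.0168; 6.9% of genes, 3.47% higher and 3.43% lower), from 359.5 normalised CPM at 2 h to 267.4, 246.1 and 239.9. With TNF 10 ng/ml edgeR and DESeq2 called 0 slopes (2.43% of genes, 1.06% higher and 1.38% lower; 6 members at an unadjusted p under 0.05), and 78 of 85 members lay below 0 with a median of -0.05. The median ratios at 24 h were -0.23 with the combination (74 of 85 members below 0), -0.18 with TNF 10 ng/ml (82 below 0) and -0.16 with IFNα1 (77 below 0), each against the same unstimulated library, and no test is possible at a single duration. Without the 24 h combination library 3 slopes passed, those of Rpl37a (-0.17, adjusted p = 0.048) and Rps25 (-0.18, adjusted p = 0.0258) among them, while those of Rpl36a (-0.19, adjusted p = 0.0676) and Rpl11 (-0.11, adjusted p = 0.129) missed the threshold. Leaving out a duration in all groups gave 2 calls without 2 h, 21 without 6 h, 13 without 12 h and 0 without 24 h for the combination.

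**Figure D4:**
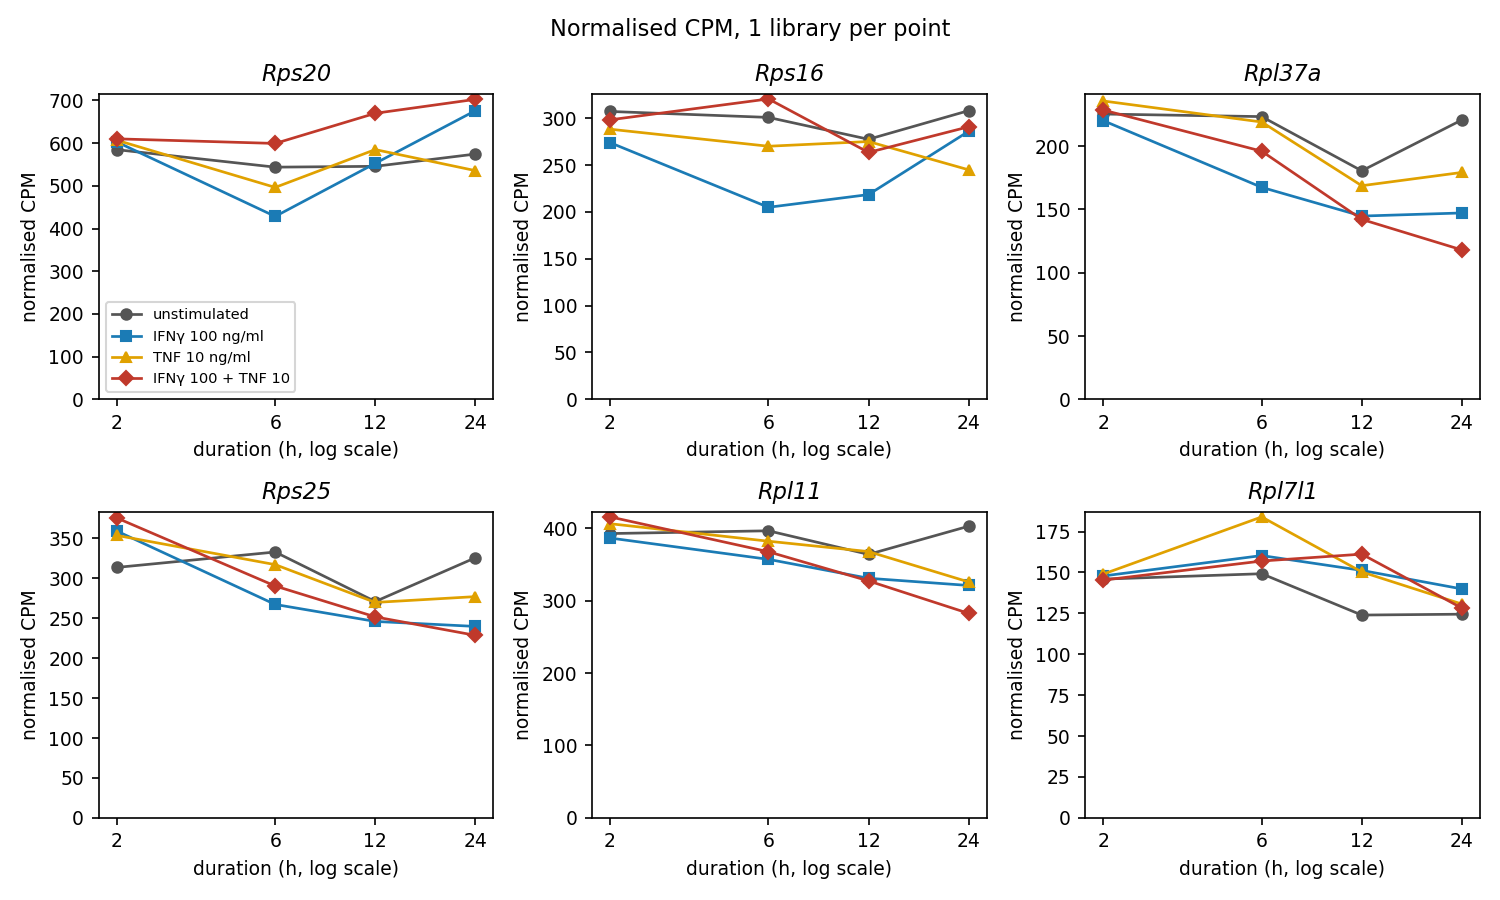
Normalised CPM (y axis, from 0) against duration in hours (x axis, log scale) for Rps20, Rps16, Rpl37a, Rps25, Rpl11 and Rpl7l1, 1 library per point, lines joining the libraries of a stimulus. With the combination Rps20 goes from 610.0 at 2 h to 702.4 at 24 h and Rpl37a from 228.5 to 118.0.

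Durations were compared over all 12 groups. From 2 h to 6 h 40 members fell and 4 rose, where 57.2% of all genes changed, 29.6% higher and 27.5% lower (member median -0.08, all genes 0.00). The largest falls were Rpl22l1 (-0.22 ± 0.06, adjusted p = 0.004), Rpl10, a late-joining protein of the large subunit (-0.18 ± 0.04, adjusted p = 5.91e-05), Rpl28 (-0.17 ± 0.05, adjusted p = 0.00136), Rpl13a (-0.17 ± 0.04, adjusted p = 0.00014) and Rpl30 (-0.17 ± 0.04, adjusted p = 0.000481). The risers were Rpl36 (0.29 ± 0.12, adjusted p = 0.038), Rplp1 (0.24 ± 0.09, adjusted p = 0.0187), Rps19bp1 (0.23 ± 0.06, adjusted p = 0.000965) and Rpl7l1 (0.14 ± 0.03, adjusted p = 0.000149). Rpl7l1 was higher at 6 h in all 12 groups.

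The direction from 2 h to 6 h differed between groups. The median ratio of the members was below 0 in 9 of 12 groups, lowest with IFNγ 100 ng/ml (-0.29), and above 0 with lymphotoxin (0.16), IL-2 (0.08) and TNF 0.1 ng/ml (0.03). In the unstimulated, IL-2 and lymphotoxin libraries alone 15 members rose and 1 fell. Here and below, the share of all genes called is not given beside such counts from these libraries. There Rpl22l1 (0.18), Rpl28 (0.10) and Rpl30 (0.02) had positive values, none of which passed. The risers Rpl36 (0.45), Rplp1 (0.30), Rps19bp1 (0.22) and Rpl7l1 (0.11) stayed above 0 in those libraries but did not pass either. Under library totals 5 members rose and 14 fell.

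From 12 h to 24 h 32 members rose and 2 fell, where 32.1% of genes changed, 15.2% higher and 16.9% lower (member median 0.09, all genes 0.00). Among the largest rises were Rpl17 (0.20 ± 0.04, adjusted p = 0.000709), Rps26 (0.19 ± 0.04, adjusted p = 0.000391), Rpl27a (0.16 ± 0.06, adjusted p = 0.0464) and Rpl37 (0.16 ± 0.03, adjusted p = 0.000252). Rps19bp1 (-0.32 ± 0.06, adjusted p = 7.35e-05; lower in 12 of 12 groups) and Rpl7l1 (-0.20 ± 0.03, adjusted p = 2.33e-06; lower in 11 of 12) fell. The median ratio was above 0 in 10 of 12 groups and below 0 with TNF 10 ng/ml (-0.05) and the combination (-0.09). In the unstimulated, IL-2 and lymphotoxin libraries alone 51 members rose and 1 fell, a count without the share of all genes beside it.

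From 2 h to 24 h 37 members fell and 9 rose, where 67.3% of genes changed, 34.8% higher and 32.5% lower (member median -0.06, all genes 0.01). Rps27l (-0.27 ± 0.04, adjusted p = 1.76e-07) and Rps3a1 (-0.26 ± 0.03, adjusted p = 1.28e-08) were lower at 24 h in all 12 groups. Rpl37a was lower in 10 of 12 (-0.30 ± 0.06, adjusted p = 4.65e-05), Rpl22l1 in 10 of 12 (-0.26 ± 0.06, adjusted p = 0.000476), and the sparse row Rpl10-ps3 fell by 0.61 ± 0.21 on the log2 scale (adjusted p = 0.00943). Rpl36 rose by 0.51 ± 0.12 (adjusted p = 0.000398), Rplp2 by 0.26 ± 0.09 (adjusted p = 0.00666), Rplp1 by 0.25 ± 0.09 (adjusted p = 0.0108), Rpl27a by 0.15 ± 0.06 (adjusted p = 0.0405) and Rps20 by 0.13 ± 0.04 (adjusted p = 0.00809). Without stimulus Rpl36 went from 120.5 normalised CPM at 2 h to 103.8 at 24 h, and with IL-2 from 77.3 to 144.7. Rplp1 and Rplp2 were likewise lower at 24 h without stimulus and higher with IL-2. In the unstimulated, IL-2 and lymphotoxin libraries alone 24 members rose and 2 fell, and Rpl37a (0.08) and Rpl22l1 (0.13) had positive values that did not pass. There Rpl36 (0.49), Rplp2 (0.31), Rplp1 (0.19) and Rpl27a (0.20) stayed above 0 but did not pass, while Rps20 (0.24) passed. Under library totals 12 rose and 13 fell.

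**Figure D5:**
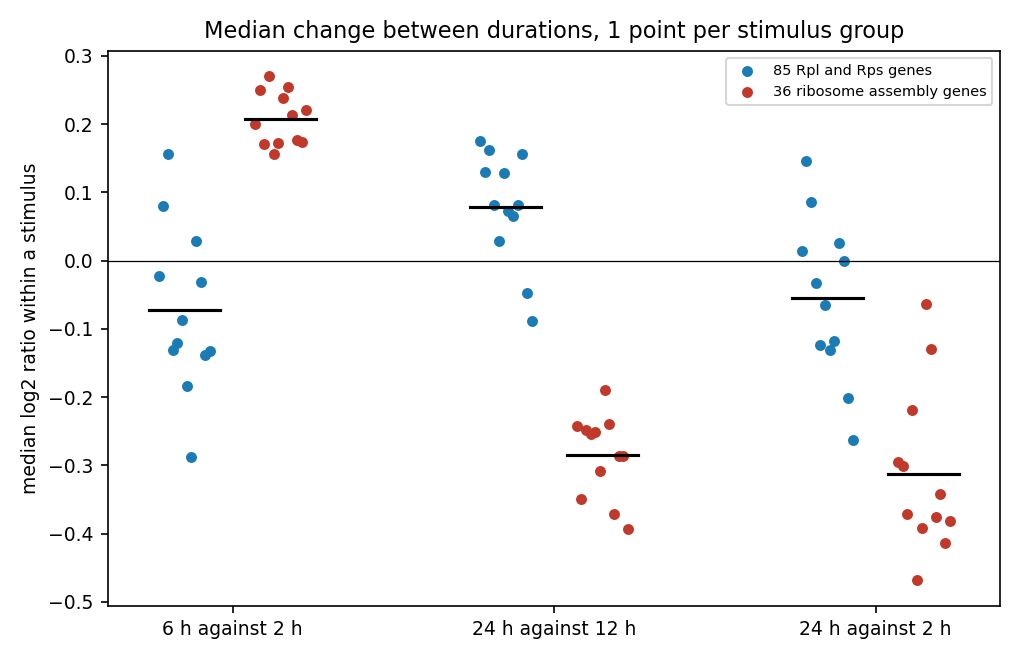
Median log2 ratio between durations within each of the 12 groups (1 point each) for the 85 tested members and for 36 ribosome assembly genes, with a bar at the mean of the points. The assembly genes lie above 0 in all 12 groups from 2 h to 6 h and below 0 in all 12 in both other comparisons, while the members spread across 0.

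Genes that build ribosomes were described in the same way. Of 36 assembly genes (nucleolar factors such as Nop56, Fbl and Ncl) 30 rose and 1 fell from 2 h to 6 h (median 0.21), led by Rrp9 (0.62 ± 0.06), Rrp12 (0.61 ± 0.06) and Bop1 (0.61 ± 0.05). From 12 h to 24 h 0 rose and 35 fell (median -0.27), and from 2 h to 24 h 0 rose and 32 fell (median -0.31). Their median ratio within a group was above 0 in 12 of 12 groups at 6 h against 2 h. Of 16 genes of RNA polymerase I and its cofactors, which make ribosomal RNA, 10 rose and 3 fell from 2 h to 6 h. Of 23 translation factors listed as TOP mRNAs 1 rose and 10 fell from 2 h to 6 h, among them Eif4b (-0.25 ± 0.04) and Eef1a1 (-0.19 ± 0.03), 8 rose and 6 fell from 12 h to 24 h, and 2 rose and 13 fell from 2 h to 24 h. Of 77 tested mitochondrial ribosomal protein genes 39 rose and 4 fell from 2 h to 6 h. For all genes the shares that rose and fell were 29.6% and 27.5% from 2 h to 6 h, 15.2% and 16.9% from 12 h to 24 h, and 34.8% and 32.5% from 2 h to 24 h.

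The same lists were described for the cytokines. With IFNγ 100 ng/ml 9 assembly genes rose and 1 fell (median 0.12, beside -0.09 for the members), among them Wdr43 (0.35 ± 0.07, adjusted p = 0.000399) and Nop56 (0.31 ± 0.09), while Nop10 fell (-0.39 ± 0.14). With TNF 10 ng/ml 9 rose and 0 fell (Heatr1 0.28 ± 0.07), and with the combination 7 rose and 1 fell (Rrp9 0.47 ± 0.11, Nop10 -0.56 ± 0.14). With IFNα1 0 rose and 8 fell, among them Rrp1b (-0.31 ± 0.07) and Nop10 (-0.48 ± 0.14). Beside these counts, 22.1% of all genes were called with IFNγ 100 ng/ml, 17.1% with TNF 10 ng/ml, 42% with the combination and 9.27% with IFNα1. Whether the lists differ in response was not tested.

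Noncoding hosts of small nucleolar RNAs, several of which are known TOP RNAs, are a further 9 genes. With IFNγ 100 ng/ml 4 rose and 0 fell: Snhg12 (0.69 ± 0.15), Zfas1 (0.49 ± 0.11), Snhg1 (0.46 ± 0.10) and Gas5 (0.37 ± 0.12). With the combination 4 rose and 0 fell. All-gene shares were 12.8% higher with IFNγ and 20.9% higher with the combination. Of the 23 translation factors 3 rose and 1 fell with the combination: Pabpc1, the poly(A)-binding protein (0.27 ± 0.05), Tpt1 (0.20 ± 0.06) and Ssb (0.16 ± 0.04) rose and Eif4b fell (-0.28 ± 0.07). Their combination slopes were higher in 1 and lower in 7 (8.04% and 9.37% of all genes). Fau, which encodes a ribosomal protein fused to a ubiquitin-like protein, was called in none of the comparisons with unstimulated cells by edgeR, and it rose from 2 h to 24 h (0.14 ± 0.06).

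Of 24 tested genes that govern ribosome production and translation, 8 rose and 4 fell with the combination, where 20.9% of all genes rose and 21.2% fell. Mxd1, which competes with Myc for Max, rose by 2.93 ± 0.36, Sesn2, an inhibitor of mTORC1, by 0.89 ± 0.19, Myc by 0.47 ± 0.13 and Larp1 by 0.43 ± 0.07. Eif4ebp2, a repressor of cap-dependent translation, changed by -0.43 ± 0.07 and Deptor by -0.86 ± 0.30. With IFNγ 100 ng/ml 6 rose and 1 fell (12.8% and 9.3% of all genes), and with TNF 10 ng/ml 2 rose and 0 fell (9.83% and 7.3%). Of 16 genes that watch over stalled ribosomes or cut RNA, 4 rose with IFNγ 100 ng/ml, 5 with TNF 10 ng/ml, 6 with the combination and 4 with IFNα1, and 0, 0, 1 and 3 fell. The share of all genes called in either direction was 22.1%, 17.1%, 42% and 9.27% in that order.

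The paralogs and their partners were compared by the ratio of their levels in each library. Rps27l had 52.7% of the counts of Rps27 in unstimulated cells (log2 ratio -0.92 ± 0.11, SD, n = 4), 53.3% with IFNγ 100 ng/ml, 50.4% with TNF 10 ng/ml and 48.6% with the combination (-1.04 ± 0.12). Rpl22l1 had 56.3% of Rpl22 without stimulus and 58.0% with the combination, and Rpl36al 21% and 22.6% of Rpl36a. Rpl7l1 had 18.9% of Rpl7 without stimulus (-2.41 ± 0.17), 21.6% with IFNγ 100 ng/ml (-2.21 ± 0.11) and 21.5% with the combination (-2.22 ± 0.16). For each of these pairs the libraries of the named stimuli overlapped the unstimulated ones. Rps27rt, of whose 50-base stretches 91.1% occur elsewhere, had 0.666% of Rps27. Rpl10l, Rpl39l and Rpl3l did not pass the filter.

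Rplp0, Rplp1 and Rplp2 were called in none of the comparisons with unstimulated cells, while from 2 h to 24 h Rplp1 and Rplp2 rose and from 12 h to 24 h Rplp0 rose (0.12 ± 0.03, adjusted p = 0.00217). Rplp0 varied least of these, at 703.9 to 808.9 normalised CPM without stimulus and 687.8 to 791.1 with the combination. Of 13 members with known extraribosomal roles 3 fell with the combination (Rpl11, Rpl13a and Rps27l), where 4 of all 85 members and 21.2% of all genes fell, and Rpl5, the partner of Rpl11, was not called. Rps3, Rps6, Rps7, Rps19 and Rpsa were not called against unstimulated cells either. From 2 h to 6 h 8 of the 13 fell, beside 40 of the 85 members and 27.5% of all genes. From 12 h to 24 h 8 of the 13 rose, beside 32 of the 85 members and 15.2% of all genes.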

How the data were processed

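Poly(A) RNA of 48 libraries was sequenced after a stranded mRNA preparation, per the labels' protocols. The authors deposited whole-number read counts per gene in 1 table of 49671 rows; HISAT and the build GRCm38 come from the submitters' processing notes, and the counting tool, annotation, strand setting and versions were not given in the sources used here. Groups were taken from the stimulus group field of the labels, and the titles matched the columns of the count table to the samples. A separate dose field of the labels differs from the titles for the lowest TNF and IFNγ doses, where the doses of the titles were used. Counts were scaled with TMM factors and tested with edgeR's quasi-likelihood F test (edgeR 4.0.16, limma 3.58.1, R 4.3.3) for stimulus with duration as a block (33 residual degrees of freedom), and with a slope on log2 hours (22). Genes needed a count of 10 in enough libraries and a total of 15, which left 12203. Calls used a Benjamini-Hochberg adjusted p under 0.05 over all tested genes. Log2 ratios at 1 duration used a prior count of 2 and carry no test. Library depth was 5612907 to 9663207 counts. The fit was also run on simulated counts with independent libraries, no change with duration and constant shifts in the combination group. Those counts cannot show how durations standing in for replicates affect the calls.

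Duration serves as the replicate number, which the labels define as shared exposure time, so the block was part of the fit. Alternatives were other scalings, no filter, DESeq2 (1.42.0), other reference and sample choices, and leaving out durations. A pair of libraries was left out singly, as choices made after the data were seen. The members and gene lists were chosen with earlier results of these data known. Named genes were the 5 largest increases and 5 largest decreases among called members of each comparison, the 5 highest and 5 lowest by level per length, the 5 least correlated with the median profile, the paralogs, the stalk genes, the members with extraribosomal roles, any gene of the lists, and the 10 most and 5 least similar other genes. Values of some genes that this rule names are not reported here, singly or in plots of single genes, while counts and medians include them.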

Additional observations from a re-analysis of the deposited data

Results flagged for a closer look

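Of 23 sets of values examined for a value far from the rest, 0 were singled out. The sets were the member shares of the 12 groups and the median ratios of the 11 comparisons with unstimulated cells, over the 4 durations. The chance expectation of 1.15 assumes independent sets of replicates, while these sets share libraries and span the durations. Slopes over log2 hours that differed from those of unstimulated cells by edgeR's test of the difference are listed here because each is a difference between groups. With IFNγ at 100 ng/ml this was Rps25, with a difference of -0.1559 per doubling of the hours. With the combination the differences were -0.2394 for Rpl37a, -0.192 for Rps25, -0.1696 for Rpl36a, -0.1513 for Rpl11, -0.1215 for Rpl23, -0.1138 for Rps3a1, -0.1117 for Rpl7, -0.1092 for Rpl3 and -0.0979 for Rpl23a.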

How the results depend on the processing

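Counts of called members are given as main value and alternatives, and where they moved the cause was not tested. The shares of all genes called under the alternatives are not given beside them. These counts alone therefore do not compare the members with all genes. Library totals alone gave 40 for IFNγ 100 ng/ml (main 8), 14 for IFNγ 1 ng/ml (2), 4 for TNF 10 ng/ml (1), 56 for the combination (6), 2 for IFNα1 (0), 11 for the combination against TNF (2), 4 and 25 for the slopes of IFNγ 100 ng/ml (1) and the combination (12), 19 for 6 h against 2 h (44) and 25 for 24 h against 2 h (46). TMM factors without the members gave 1 for the combination against TNF and 2 for the IFNγ slope. Without a filter there were 2 for IFNγ 100 ng/ml, 0 for IFNγ 1 ng/ml, 0 for TNF 10 ng/ml, 3 for the combination, 1 against IFNγ, 1 against TNF, 6 for the combination slope and 30 for 24 h against 2 h. The compared groups alone gave 3, 1, 0 and 0 for IFNγ 100 and 1 ng/ml, TNF 10 ng/ml and the combination, 1 and 0 for the combination against IFNγ and TNF, and 0 and 2 for the slopes of IFNγ and the combination. The 2 h and 6 h libraries alone gave 0 in each of these 6 comparisons of stimuli. The 12 h and 24 h libraries alone gave 14 for IFNγ 1 ng/ml, 0 for TNF 10 ng/ml, 16 for the combination, 1 against IFNγ and 4 against TNF. With IL-2 as reference there were 3 for IFNγ 100 ng/ml and 0 for IFNγ 1 ng/ml. The 2 compared durations alone gave 27 for 24 h against 2 h.

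Without the replicate block (no duration term) there were 0 for IFNγ 100 ng/ml, 0 for IFNγ 1 ng/ml, 0 for TNF 10 ng/ml, 1 for the combination, 1 against IFNγ and 1 against TNF. The slopes were not fitted without the block or in subsets of durations. Leaving out 1 duration gave 0 to 21 for IFNγ 100 ng/ml, 0 to 14 for IFNγ 1 ng/ml, 0 to 1 for TNF 10 ng/ml, 1 to 15 for the combination, 0 to 1 for IFNα1, 1 to 5 and 0 to 4 for the combination against IFNγ and TNF, and 0 to 7 and 0 to 21 for the slopes of IFNγ and the combination. Without the 6 h library of IFNγ 100 ng/ml, a choice made after seeing the data, there were 2, and without the 24 h combination library 2 for the combination and 3 for its slope. In the unstimulated, IL-2 and lymphotoxin libraries alone 16, 52 and 26 members passed for 6 h against 2 h, 24 h against 12 h and 24 h against 2 h. There the sign turned for Rpl22l1 (0.18), Rpl28 (0.10) and Rpl30 (0.0244) at 6 h against 2 h, Rpl27a (-0.0501) at 24 h against 12 h, and Rpl37a (0.0776) and Rpl22l1 (0.13) at 24 h against 2 h.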

Other observations

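The block of Rpl36, Rplp1, Rplp2, Rps10 and Rpl27a, picked after its values were seen, departed from the other members in single libraries. Relative to its own mean the block was at -0.41 on the log2 scale at 2 h of TGF-β, where the other members, relative to theirs, were at 0.11. At 24 h of TGF-β the block was at 0.30 and the others at 0.08. These values are not ratios to unstimulated cells. These are values of 1 library each and carry no test.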
